A study of Mus musculus with 88 samples.

Results

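The comparison described here is the baseline difference between mice of the D1-Cre and the D2-Cre genotype, measured across all expressed genes of the nucleus accumbens in females that carried the gene activator with a guide that targets nothing. Its members were the 8 F_D1-control and the 8 F_D2-control libraries, which are 16 of the 87 libraries with a column of counts (88 are labelled). These mice, on a C57BL/6 backcross, had received a pair of herpes simplex vectors in the nucleus accumbens. One vector encoded nuclease-dead Cas9 joined to CREB(S133D), a constitutively active form of the transcription factor CREB, and the other the non-targeted guide gNT. In both groups the virus depended on Cre, so the genotype set which cells could express the activator. The tissue was dissected 6 days after surgery, and every library of the comparison was sequenced in batch 1. Further line comparisons used mice of the same design that had received the Fosb guide g11 (6 F_D1-targeted and 8 F_D2-targeted libraries, 7 M_D1-targeted and 7 M_D2-targeted libraries) and male controls (4 M_D1-control and 8 M_D2-control libraries). The groups named D1-D2 are labelled D1-Cre and received virus that does not depend on Cre. The promoter construct behind each Cre line, the animals' ages and whether a library is 1 mouse are not stated in these sources, so p-values measure the spread between these libraries. Whole dissected tissue was used, in which infected cells are an unmeasured part.

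The nucleus accumbens is built mainly of medium spiny neurons, GABAergic projection cells that fall into a type with the dopamine receptor Drd1, the neuropeptides dynorphin and substance P, and a type with the dopamine receptor Drd2, the adenosine receptor Adora2a and the peptide enkephalin. Drd1 couples to the G protein Golf and raises cAMP, whereas Drd2 couples to Gi and lowers it. Cre driver lines place the recombinase in one type or the other, and such lines are often made from large genomic clones that can carry neighbouring genes beside the promoter gene. How these lines were made was not stated, and the part of any such sequence in the results was not tested.

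Total counts ran from 15844472 to 41546449 in the D1-Cre controls and from 24986394 to 39043867 in the D2-Cre controls. Protein-coding genes held 74.4% to 90.3% of the counts in 15 of these libraries. The exception was D1-Cre library 17457, in which they held 35.9%, ribosomal RNA 25.7% and the 10 most abundant genes 79.1%, which left 5686295 protein-coding counts. The same library, labelled female, held Y-linked transcripts, with 18 reads of Uty (3.90 CPM) and 22 of Ddx3y (4.77 CPM), where the other 15 libraries had at most 0.236 and 0.508 CPM and the 37 libraries labelled male at least 30.2 and 51.3 CPM. Its Xist level, 50.5 CPM, was within the 25.4 to 86.0 CPM of the other female controls. No pair of libraries within a group agreed within sampling noise. The lowest ratio of the variance between a pair to its sampling variance was 47.0 over 56 pairs. The title numbers of the D1-Cre controls lie between 16583 and 17719, with 19755 beside them, and those of the D2-Cre controls between 17906 and 18433. What the numbers stand for is not stated, and cohort and line cannot be told apart.

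Some libraries went against their labels in the genes that separate the lines, and these are named before the results. Library 17719, labelled F_D1-control, held Sfxn1 at 48.1 CPM (counts scaled to library size with TMM factors), inside the range of the D2-Cre libraries, while its Ttc12 level of 4.46 CPM was in the D1-Cre range. Library 17909, labelled F_D2-control, held Dnah6 at 1.44 CPM, inside the D1-Cre range. Among males, libraries 18386, 19099, 18718 and 18777 are labelled D2-Cre and had both Sfxn1 and Ttc12 in the range of the female D1-Cre mice or close to it. Libraries 18722, 19112 and 19107 are labelled D1-Cre and had Sfxn1 within the range of the female D2-Cre mice and Ttc12 in or above it.

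Across all expressed genes the lines were close. Of 25420 genes tested, 5 passed an adjusted p of 0.05 in edgeR's quasi-likelihood test with Benjamini-Hochberg adjustment, which is 0.0197% of the genes tested. The mitochondrial serine transporter gene Sfxn1 and the predicted genes Gm9887 and Gm35021 were higher in D1-Cre mice (0.0118% of genes). The axonemal dynein gene Dnah6 and Ttc12, whose product is needed to assemble dynein arms of cilia, were lower (0.00787%). The median log2 fold change of all genes was −0.01, where positive values mean higher in D1-Cre mice. On simulated counts the same test recovered 56% of 50 genes changed by 1.5-fold and 86% of 50 changed by 2-fold, so smaller differences could be missed. The changed genes had a mean of at least 1 CPM, so recovery of lower genes was not measured. Many more genes were changed there than passed in the data, which loosens the adjusted threshold. The simulated counts held no library with a surge of single genes and none that went against its label. Recovery in the data can therefore be lower than these shares. Beside the recovered genes, 4 unchanged genes were called among the 24850 tested there. Without library 17457, Dnah6, Gm9887 and Sfxn1 passed. Without libraries 16583 and 17910, which had been singled out for a check, Sfxn1 was the 1 gene that passed.

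**Figure D1:**
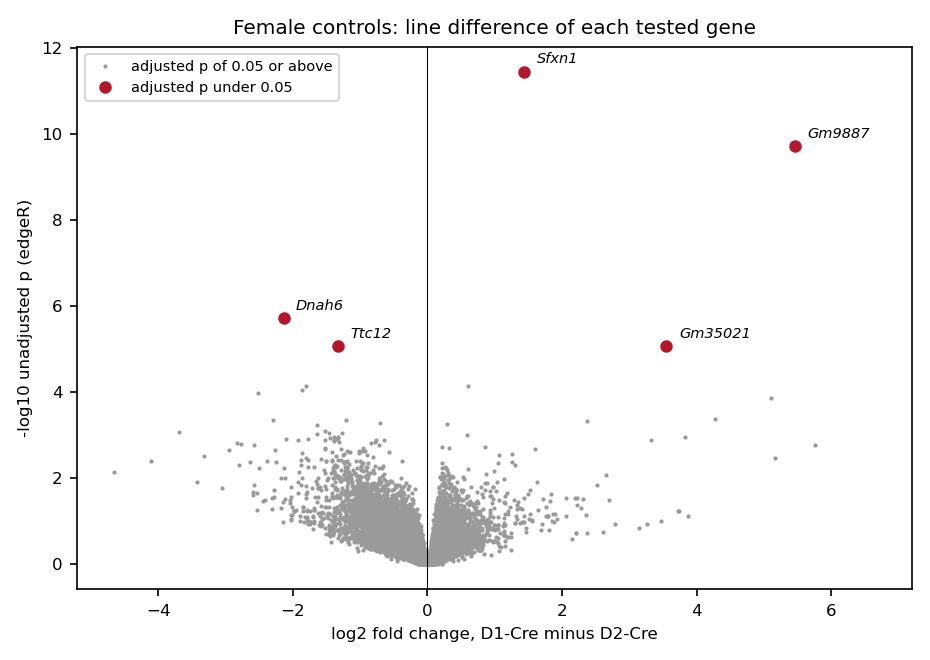
Each point is 1 of 25420 genes, with the log2 fold change of D1-Cre minus D2-Cre female controls on the x axis and −log10 of the unadjusted edgeR p on the y axis. The 5 genes with an adjusted p under 0.05 are in red: Sfxn1, Gm9887 and Gm35021 lie to the right and Dnah6 and Ttc12 to the left.

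Sfxn1 (ENSMUSG00000021474.9) is a protein-coding gene on chromosome 13 of mm10, from 54071869 to 54108342 on the + strand, and its nearer end lies 16.2 kb from Drd1. It encodes sideroflexin 1, which carries serine into mitochondria. In the 8 D1-Cre controls Sfxn1 ran from 48.1 to 181 CPM with a median of 144, and in the 8 D2-Cre controls from 39.6 to 56.9 CPM with a median of 47.6. Apart from library 17719, the D1-Cre libraries started at 103 CPM, above every D2-Cre library. Mean levels were 130 ± 41.7 CPM (SD, n = 8) and 47.9 ± 4.74 CPM (SD, n = 8). The log2 fold change was 1.44 (SE 0.18, edgeR adjusted p = 9.06e-08), or 2.71-fold, and 7 of the 8 D1-Cre libraries showed it. Sfxn1 passed in 25 of 25 alternative settings, with log2 fold changes of 1.26 to 1.57. A higher level per cell and more cells with the transcript cannot be told apart in tissue RNA.

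Ttc12 (ENSMUSG00000040219.4) lies on chromosome 9 from 49436963 to 49486225 on the − strand, 28.8 kb from Drd2, with Ankk1 between the pair. It ran from 3.53 to 5.32 CPM with a median of 4.10 in D1-Cre controls and from 7.29 to 13.9 CPM with a median of 11.3 in D2-Cre controls. The groups did not overlap. Non-overlapping groups with the lower values in D1-Cre mice were found for 5 genes (0.0197%) and with the higher values for 0 genes (0%). The log2 fold change of Ttc12 was −1.33 (SE 0.28, edgeR adjusted p = 0.0433), so the level in D2-Cre mice was 2.51-fold that in D1-Cre mice. This p lies near the threshold. Leaving out any 1 library gave log2 fold changes of −1.39 to −1.26 with edgeR adjusted p of 0.0360 to 0.162. The call was kept in 1 of these 16 fits, the one without library 17906. Over all 25 alternative settings Ttc12 passed in 7. Those 7 include DESeq2 size factors, DESeq2's Wald test, limma-voom, surrogate variables, batch 1 alone and the 16 libraries alone. The spread in the main fit was estimated over all 12 groups. These hold the male libraries that went against their labels, whose part in the p was not tested.

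Dnah6 (ENSMUSG00000052861.13) encodes a heavy chain of the inner dynein arm that moves cilia and flagella. It lies on chromosome 6 from 73017606 to 73221651 on the − strand. Its level ran from 0.848 to 2.64 CPM in D1-Cre controls, with a median of 1.497. In D2-Cre controls library 17909 held 1.44 CPM and the other 7 libraries 6.51 to 8.90 CPM, with a median of 8.13 over all 8. With that 1 library the groups overlap, and without it they do not. The log2 fold change was −2.14 (SE 0.41, edgeR adjusted p = 0.0161), and the D2-Cre level was 4.39-fold that of D1-Cre mice. The call was lost without any 1 of libraries 16597, 17455, 17719 and 19755, where the adjusted p reached at most 0.0814.

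Gm35021 (ENSMUSG00000109714.1) is a processed transcript on chromosome 8 from 35724175 to 35757517 on the + strand. Its level was low in both groups. The D1-Cre controls held 4 to 57 reads each, or 0.12 CPM in library 17719 and 0.511 to 1.48 CPM in the other 7. The D2-Cre controls held 1 to 5 reads each, or 0.03 to 0.14 CPM. Among these controls library 17719 was thus the 1 D1-Cre library inside the D2-Cre range, as for Sfxn1. In the 26 female D1-Cre libraries outside the comparison Gm35021 ran from 0 to 3.21 CPM, and in all 16 female D2-Cre libraries from 0 to 0.201 CPM. The 22 male D1-Cre libraries ran from 0 to 1.98 CPM with a median of 0.158. Outside these controls its levels therefore overlapped between lines. The log2 fold change was 3.55 (SE 0.74, edgeR adjusted p = 0.0433), and the call was lost in 14 of the 16 fits that left out 1 library, with adjusted p of up to 0.173. Cldn23, which encodes a tight junction claudin, lies 67.2 kb from it. Cldn23 was chosen after its values were seen. It did not pass, with means of 0.88 ± 0.34 against 0.43 ± 0.20 CPM (SD, n = 8 each) and a log2 fold change of 1.05 (SE 0.36).

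Gm9887 rested on a single library. The gene (ENSMUSG00000052673.2) lies on chromosome 12 from 69371835 to 69372458 on the − strand, inside the span of Arf6, a small GTPase gene on the + strand. Library 16583 held 890 CPM and the other 15 libraries of both lines 1.18 to 4.18 CPM. Arf6 was at 959 CPM in the same library, at 264 CPM in D2-Cre library 18421 and at 36.0 to 79.5 CPM in the rest of the D1-Cre controls. The strand setting of the counting was not stated in these sources, so reads of the pair cannot be told apart. The fitted log2 fold change of 5.46 (SE 0.74, edgeR adjusted p = 2.40e-06) became 0.03 with an adjusted p of 1 without library 16583, and DESeq2's Wald test gave −0.02. Further genes of this stretch of chromosome 12 had a high value in 1 or 2 libraries: Mgat2 was at 521 CPM in library 16583, and Pole2, which encodes a DNA polymerase subunit, at 283 CPM in D2-Cre library 18401 and at 62.6 CPM in D1-Cre library 17455. For the 16 genes around the 7SL RNA loci here the median log2 fold change was 0.02 beside −0.01 over all genes. Single members ran from −1.91 to 5.46. At an unadjusted edgeR p under 0.05, which 3.91% of all genes reached, 4 were higher and 1 lower.

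**Figure D2:**
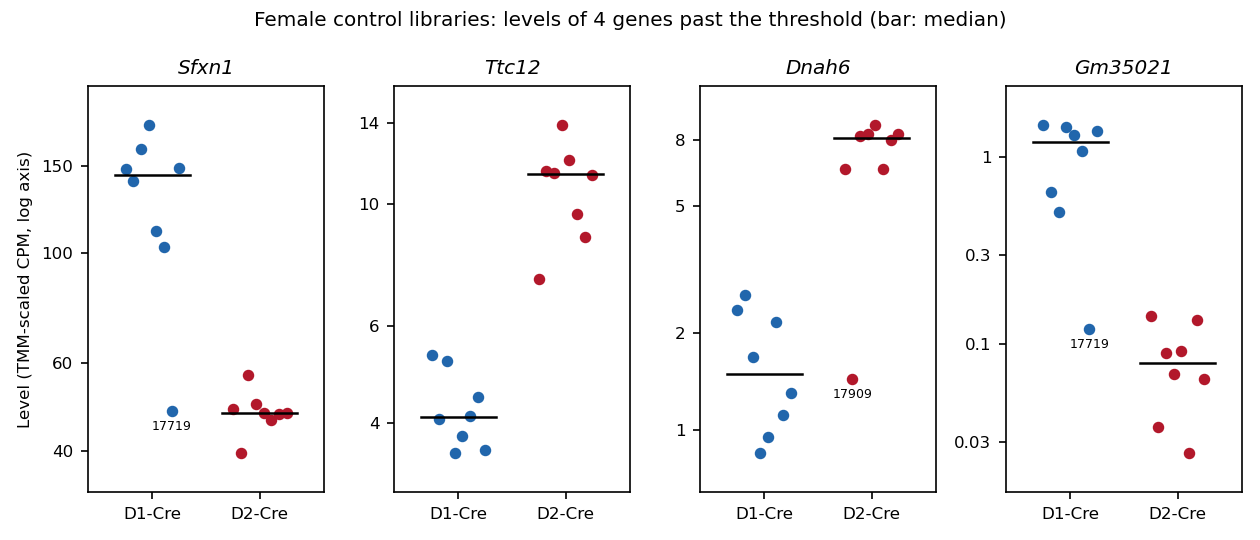
Levels in TMM-scaled CPM on log axes of Sfxn1, Ttc12, Dnah6 and Gm35021 in the 8 D1-Cre (blue) and 8 D2-Cre (red) female control libraries, 1 point per library, with the group median as a bar. Ttc12 does not overlap between lines. Library 17719 lies in the D2-Cre range for Sfxn1 and Gm35021, and library 17909 lies in the D1-Cre range for Dnah6.

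The genes around the receptors were described to see how far each difference reached along the chromosome. Within 1 Mb of the start of Drd1, 32 genes were tested, and Sfxn1 was the 1 that passed. Of the 23 with a mean of at least 1 CPM the other 22 had log2 fold changes of −0.21 to 0.32. The histamine receptor gene Hrh2, whose nearer end lies 136 kb from Drd1, had a log2 fold change of −0.03 (SE 0.26). Cplx2, which encodes a synaptic vesicle fusion protein, was at 336 ± 114 CPM in D1-Cre and 274 ± 98.9 CPM in D2-Cre mice (SD, n = 8 each), a log2 fold change of 0.29 (SE 0.26). Around Drd2, 18 genes were tested and Ttc12 was the 1 that passed. Of the 12 with a mean of at least 1 CPM the other 11 lay between −0.42 and 0.09. Ankk1, a kinase gene that lies between Drd2 and Ttc12 and 9.94 kb from Ttc12, was at 1.53 ± 0.80 and 1.51 ± 0.75 CPM (SD, n = 8 each), a log2 fold change of 0.03 (SE 0.32). Gm4894, 60.03 kb from Drd2 on the other side, held 0 or 1 read in each D1-Cre library and 1 to 7 reads in each D2-Cre library. It did not pass (edgeR adjusted p = 1) and was chosen after its values were seen.

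**Figure D3:**
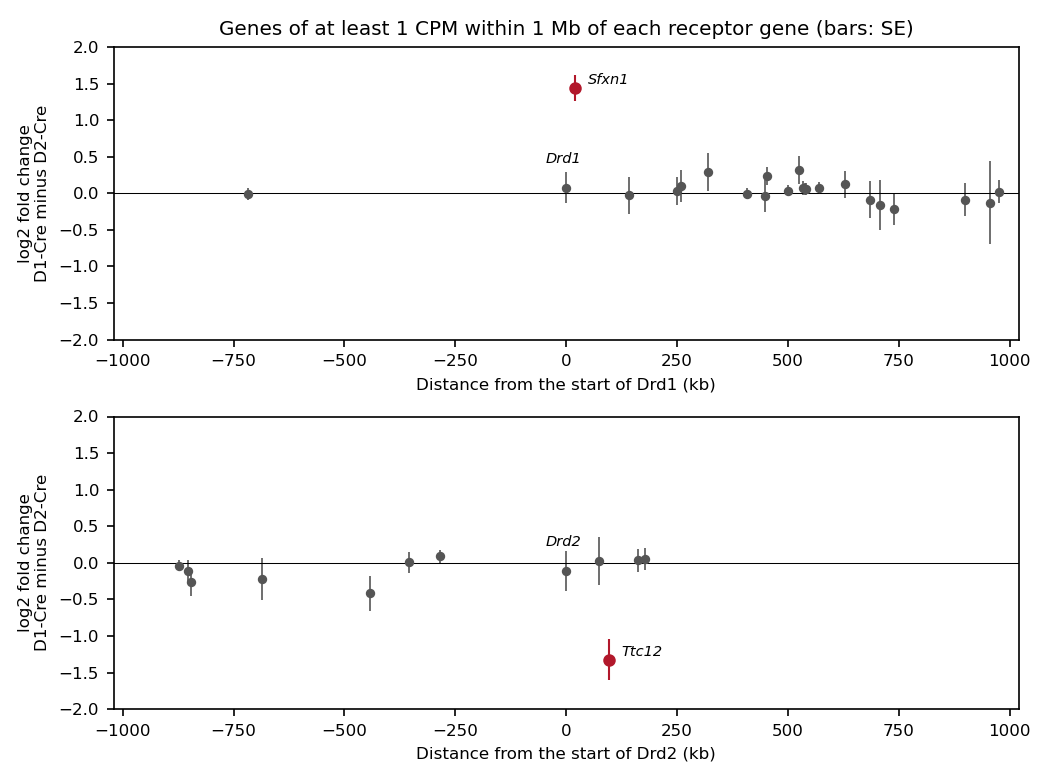
Log2 fold change (D1-Cre minus D2-Cre, bars are SE) against distance in kb from the start of Drd1 (top) and Drd2 (bottom) for genes with a mean of at least 1 CPM. Sfxn1 beside Drd1 at 1.44 and Ttc12 beside Drd2 at −1.33 are in red, and the other genes lie between −0.42 and 0.32.

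The receptor genes themselves had overlapping levels in the lines. Drd1 ran from 177 to 382 CPM in D1-Cre controls and from 155 to 328 CPM in D2-Cre controls, so the groups overlapped through most of their range. Its difference in mean log2 CPM was 0.07 (exact permutation test over 12870 splits, two-sided, p = 0.722, 0.722 after adjustment over 4 genes). Drd2 ran from 44.9 to 104 CPM against 35.1 to 114 CPM, a difference of −0.09 (exact permutation p = 0.693, adjusted 0.722). Adora2a ran from 83.8 to 209 CPM against 50.8 to 187 CPM, a difference of 0.15 (exact permutation p = 0.594, adjusted 0.722). Fosb, the gene that the activator is aimed at in the other arms, encodes FosB and its truncated product ΔFosB, transcription factors that accumulate in striatal neurons. It ran from 4.63 to 9.64 CPM against 5.47 to 11.9 CPM, a difference of −0.08 (exact permutation p = 0.637, adjusted 0.722). In the fit across all genes the log2 fold changes were 0.08 (SE 0.21) for Drd1, −0.12 (SE 0.27) for Drd2, 0.11 (SE 0.25) for Adora2a and −0.08 (SE 0.22) for Fosb. These p-values do not show that the levels are equal.

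Lists of cell type genes described whether the dissections held the same tissue. Of 12 markers of D1 neurons 9 had a higher fitted value in D1-Cre mice, a direction that 47.6% of all genes had. The median log2 fold change of the 12 was 0.17 beside −0.01 over all genes, and Sfxn1 was the 1 that passed. The lists were chosen with earlier results of these data known, and this is the call described above, counted again. Leaving out 1 library gave medians of 0.05 (without 19755) to 0.28 (without 17910). Among the rest, the substance P precursor gene Tac1 was at 189 ± 73.0 and 166 ± 61.6 CPM (SD, n = 8 each; log2 fold change 0.19, SE 0.25) and the dynorphin precursor gene Pdyn at 196 ± 51.4 and 176 ± 58.5 CPM (0.15, SE 0.25). Of 11 markers of D2 neurons 8 were higher in D1-Cre mice as well, with a median of 0.11. Ttc12, likewise a call described above, was the 1 that passed, in the other direction. That median ran from −0.0010 without library 19755, where 5 were higher, to 0.24 without 17910. The enkephalin precursor gene Penk was at 680 ± 164 CPM in D1-Cre and 570 ± 163 CPM in D2-Cre mice (SD, n = 8 each; 0.25, SE 0.24). The 18 genes shared by both types of medium spiny neuron had a median of 0.12, and 0 passed. All 18 had a positive log2 fold change, but 16 of 18 had one with DESeq2 size factors and 13 of 18 without library 17906, where the median was 0.04. Without library 16585 the median was 0.20. Among these, Ppp1r1b, which encodes the dopamine-regulated phosphatase inhibitor DARPP-32, was at 395 ± 98.2 against 360 ± 107 CPM (SD, n = 8 each).

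D2-Cre library 17906 stood apart in cortical markers. Its summed level of 12 cortical glutamatergic markers was 965 CPM, while the 15 other libraries ran from 114 to 403 CPM. Its shared medium spiny neuron genes summed to 3494 CPM, the lowest of the 16 libraries. For the cortical list the median log2 fold change was −1.02, with 0 members past the threshold, and a median of 0.08 without library 17906. Slc17a7, which encodes the vesicular glutamate transporter of cortical neurons, was at 45.0 ± 69.9 and 109 ± 203 CPM (SD, n = 8 each), a spread wider than the difference. Markers of septum and pallidum, which border the accumbens, had a median of 0.27, with 9 of 10 higher in D1-Cre mice and 0 past the threshold. Of these 2 were higher at an unadjusted p under 0.05, a level that 1.02% of all genes reached with a higher value. D1-Cre library 16585 held the highest sum of that list, 255 CPM against 63.7 to 169 CPM in D2-Cre mice. Without this library the median was 0.13, with 6 of 10 higher and 0 at that level. Without library 17906 the median was 0.63, with 9 of 10 higher and 3 at an unadjusted p under 0.05. Library 16585 also held the choroid plexus gene Ttr, a thyroid hormone carrier, at 20.9 CPM, where the other 15 libraries had at most 0.848 CPM. The 9 choroid plexus and ependymal genes tested had a median of 0.65, with 7 higher and 0 past the threshold. Of the 7, 2 had an unadjusted p under 0.05, beside the same 1.02% of all genes. Without library 16585, 8 of the list were tested, with a median of 0.31 and 0 at that level. Of 14 markers of striatal interneurons 12 were higher, with a median of 0.22 and 0 past the threshold, and all 14 were higher without library 17906, with a median of 0.39. Lists of immune genes spread widely inside both groups and had 0 members past the threshold. The summed level of 14 microglia genes ran from 1574 to 3753 CPM in D1-Cre and from 1412 to 3986 CPM in D2-Cre mice, and that of 20 interferon-stimulated genes from 1084 to 3124 and from 868 to 2202 CPM.

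The list of 10 heat shock genes was higher in D1-Cre mice in the fitted value of every member, with a median log2 fold change of 0.30 beside −0.01 over all genes. None of its members passed the adjusted threshold (0 of 10 in edgeR), and 5 had an unadjusted p under 0.05, a level that 3.91% of all genes reached and 1.02% reached with a higher value in D1-Cre mice. The constitutive chaperone gene Hspa8 ran from 1204 to 1841 CPM in D1-Cre and from 1109 to 1326 CPM in D2-Cre controls, which overlap. Its log2 fold change was 0.30 (SE 0.08, edgeR adjusted p = 0.846). Hspa5, the chaperone of the endoplasmic reticulum, was at 451 ± 33.8 and 363 ± 57.2 CPM (SD, n = 8 each; 0.31, SE 0.11). Hsp90aa1, a chaperone of signalling proteins, was at 548 ± 81.0 and 429 ± 84.9 CPM (SD, n = 8 each; 0.35, SE 0.13). The small heat shock gene Hspb1 was at 5.88 ± 1.97 and 3.89 ± 0.58 CPM (SD, n = 8 each; 0.60, SE 0.21). All 10 stayed higher with DESeq2 size factors and in each of 16 fits that left out 1 library, with medians of 0.26 to 0.33. Those fits share most of their libraries and are no independent support. The list was chosen with earlier results of these data known, and the members named had its smallest p. In mice with the Fosb guide 9 of 10 were higher in D1-Cre females, with a median of 0.13, and Hspa8 had a log2 fold change of 0.04.

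The remaining lists described here had 0 members past the threshold. The 24 activity-induced genes, which mark recent firing, had a median of −0.05 with 0 at an unadjusted p under 0.05. The 14 core clock genes had a median of 0.04, and among them Arntl, which encodes the clock activator BMAL1, was at 26.0 ± 3.90 and 20.5 ± 2.34 CPM (SD, n = 8 each; 0.35, SE 0.13, edgeR adjusted p = 1). The 8 opioid receptor and peptide genes had a median of 0.19, with 7 higher, and a median of 0.09 without library 19755. For 10 astrocyte genes the median was 0.11, for 10 myelinating oligodendrocyte genes 0.15 (0.05 without library 16585), for 12 vascular genes 0.09 and for 18 ribosomal protein genes −0.08. The 13 genes of the mitochondrial genome had a median of −0.16 with 11 lower, but one of 0.12 with 10 higher without library 18421. In the main fit 2 were lower at an unadjusted p under 0.05, a level that 2.9% of all genes reached with a lower value. Their summed level was 14280 CPM in D2-Cre library 18421, where mt-Atp6, a subunit of ATP synthase, stood at 199 CPM. The 4 Y-linked genes and Xist had a median of 0.45, and one of −0.13 without library 17457.

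**Figure D4:**
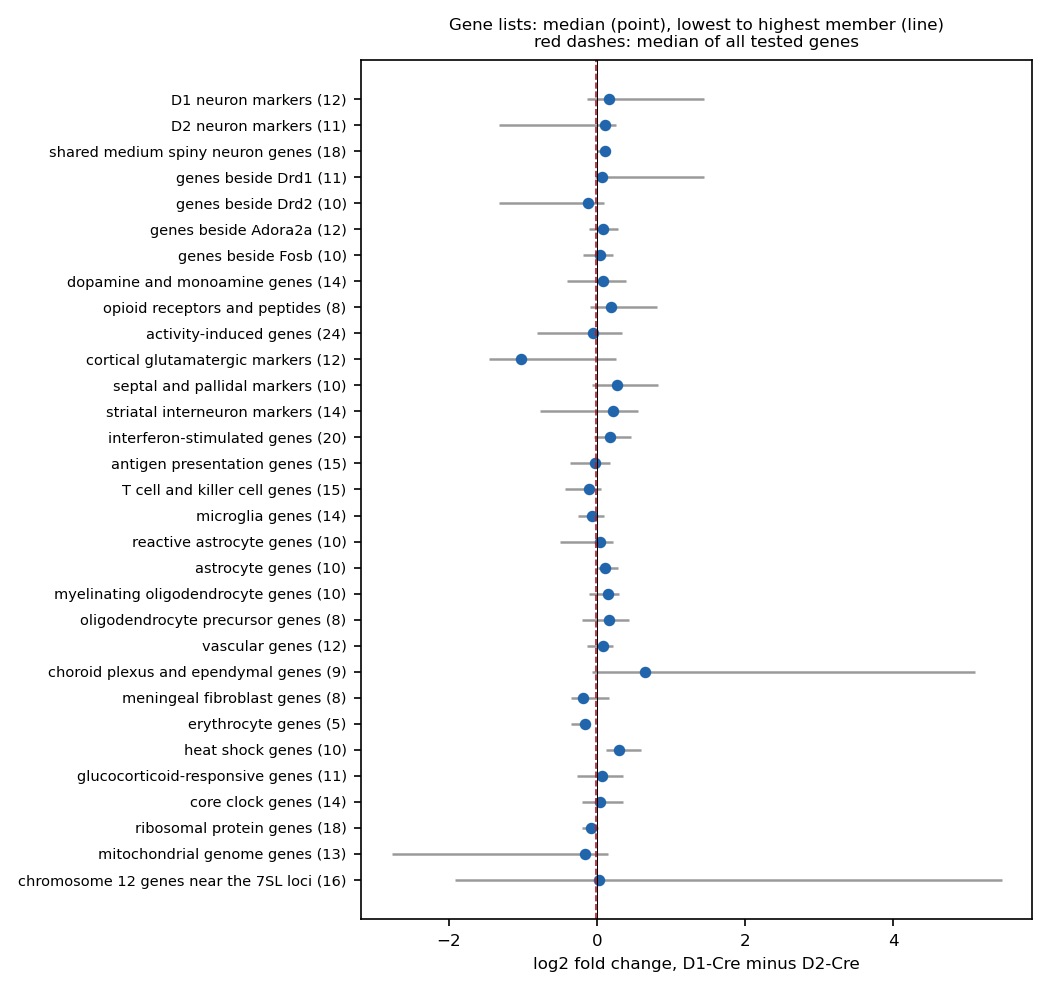
Median log2 fold change (point) and the lowest to highest member (line) of each gene list in female controls, D1-Cre minus D2-Cre, with the number of tested members in brackets and the median of all tested genes as red dashes. The list of Y-linked genes and Xist is not drawn. The cortical list has its median at −1.02 and the heat shock list at 0.30 with every member above 0.

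Genes with the smallest p among those that did not pass were led by Ndnf, a secreted neurotrophic factor of neurons. Ndnf ran from 5.05 to 19.7 CPM in D1-Cre and from 11.5 to 86.2 CPM in D2-Cre controls, with a log2 fold change of −1.80 (SE 0.43, edgeR adjusted p = 0.264), and passed in DESeq2's Wald test (adjusted p = 0.0286). Its highest value was in library 17906, the one with the most cortical markers, and without it the log2 fold change was −1.35. On the lower side in D1-Cre mice Mst1, Cyp2g1, mt-Atp6 and Wdr66 followed, with log2 fold changes of −1.34, −2.83, −2.77 and −0.96. Mst1 held 0 to 21 reads per library. Cyp2g1 held 15 reads in D2-Cre library 17910 and 6 in 17909, with 0 to 4 in the rest. Wdr66 was highest in library 17906, at 2.37 CPM against 0.412 to 1.01 CPM in the other D2-Cre libraries. On the higher side were Ttr, Igkv1-122, Hspa8, Amigo2 and Rnu2-10, at 5.10, 4.28, 0.30, 0.60 and 3.83, of which Ttr and Rnu2-10 (106 CPM in library 16597) rested on 1 library. Igkv1-122, an immunoglobulin segment, rested on libraries 16583 and 17455 with 44 and 61 reads, where the other 14 held 0 to 4. On the lower side mt-Atp6 was at 199 CPM in library 18421 and 73.5 CPM in 17909, with 3.82 to 17.1 CPM in the other D2-Cre libraries. Amigo2, which encodes a neuronal adhesion protein, ran from 6.55 to 19.3 and from 6.00 to 9.32 CPM.

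At an unadjusted p under 0.05, 259 genes (1.02%) were higher and 736 (2.90%) lower in D1-Cre mice. Leaving out 1 library gave 153 (without 16585) to 549 (without 17910) higher and 549 to 921 lower. The lower side held many gene models of the annotation class TEC, provisional transcripts awaiting experiment, whose median level was 0.265 CPM. Of 1436 such models 247 were lower and 3 higher, and their median log2 fold change was −0.45. Protein-coding genes were 190 higher and 136 lower, with a median of 0.02, but 138 higher and 188 lower with DESeq2 size factors, with a median of −0.01. Leaving out 1 library gave 100 higher and 125 lower without 16585 and 459 higher and 184 lower without 17910. The summed level of the TEC models ran from 1216 to 1484 CPM in D1-Cre and from 1326 to 1749 CPM in D2-Cre libraries, so the groups overlapped. With DESeq2 size factors 261 of these models were lower and 2 higher. Leaving out 1 library gave 129 to 327 lower, with the fewest without D1-Cre library 16596, where protein-coding genes were 160 higher and 158 lower. In females with the Fosb guide 18 of the same 1436 models were lower and 20 higher at that level, which 4.98% of all genes reached there, and without library 17376 of that comparison 13 were lower and 31 higher.

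Line differences in libraries outside the comparison were read next. In mice with the Fosb guide they include any effect of the guide that differs between lines. In females with the Fosb guide 1 gene passed (0.00393%), and it was Sfxn1, with a log2 fold change of 1.47 (SE 0.19, edgeR adjusted p = 4.43e-07) and levels of 113 to 142 CPM in 6 D1-Cre libraries and 38.0 to 57.2 CPM in 8 D2-Cre libraries. D1-Cre library 17376 of these mice, labelled female, held Ddx3y at 37.0 CPM and Uty at 19.96 CPM beside Xist at 35.2 CPM, while the other 5 D1-Cre libraries had at most 0.716 CPM of Ddx3y and the D2-Cre libraries at most 7.18 CPM. Cortical markers were higher in D1-Cre mice for 12 of 12 genes, with a median of 2.00, and summed to 172 to 943 CPM against 106 to 326 CPM, and their part in the line difference was not tested. Of 24 activity-induced genes 23 were higher, with a median of 0.45. Of these 14 had an unadjusted edgeR p under 0.05, which 4.98% of all genes reached there. In controls 7 of the 24 were higher and 0 reached that level. The part of the guide in this was not tested. Without library 17376, which was left out after its values were seen, Sfxn1 had a log2 fold change of 1.48 and was again the 1 gene that passed. Ttc12 had a log2 fold change of −1.55 (SE 0.31, edgeR adjusted p = 0.0504) and passed with DESeq2 size factors (adjusted p = 0.0217). Its levels, 2.84 to 5.78 against 8.23 to 14.4 CPM, did not overlap, as was the case for 5 genes lower (0.0197%) and 15 higher (0.059%) in D1-Cre mice of this comparison. It was the 1 gene of 25420 (0.00393%) without overlap in both female comparisons. Dnah6 had a log2 fold change of −1.79 (SE 0.45) and Gm35021 one of 3.43 (SE 0.82). Both missed the threshold at edgeR adjusted p of 0.472 and 0.358. Dnah6 levels overlapped here, at 1.25 to 2.21 CPM in D1-Cre and 2.05 to 8.37 CPM in D2-Cre libraries. Gm9887 had one of −0.03. Of the 995 genes with an unadjusted p under 0.05 in controls 59.0% had the same sign in this comparison, against 59.3% of all genes.

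In the male comparisons, grouped by label, none of these genes passed. In male controls 0 genes passed in edgeR, with 606 at an unadjusted p under 0.05 (2.38%) and 0 by DESeq2 or limma-voom, and Sfxn1 had a log2 fold change of 0.24 (SE 0.25) and Ttc12 one of −0.35 (SE 0.45). In males with the Fosb guide 1 gene passed, the immunoglobulin segment Igkv1-99 (−5.23, SE 0.99, edgeR adjusted p = 0.0262), and Sfxn1 had 0.12 (SE 0.20). The difference between females and males in the line effect passed for 0 genes in edgeR, with 758 at an unadjusted p under 0.05 (2.98%) and 0 by DESeq2 or limma-voom. For Sfxn1 it was 1.199 (SE 0.31, unadjusted edgeR p = 2.00e-04, adjusted p = 1). The libraries that went against their labels are in these male groups: both batch 1 libraries of M_D2-control, 18386 and 19099, held Sfxn1 at 94.2 and 92.1 CPM. Without these, 8 genes passed in male controls, and Sfxn1, Ttc12 and Dnah6 were not among them, with log2 fold changes of 0.38, −1.29 and −2.19 (edgeR adjusted p of 0.950, 0.949 and 0.949). In that setting the 4 D1-Cre libraries are all of batch 1 and the 6 D2-Cre libraries all of batch 2, so line and batch differ together in these libraries and the values rest on a batch term estimated from the other groups. Without 18722, 19112, 18718 and 18777 the changes in males with the Fosb guide were 0.80, −1.13 and −2.005 (edgeR adjusted p of 1, 1 and 0.823). The libraries were chosen on these genes, so the second values describe them and are no support for a difference.

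Across all 87 libraries the levels of the pair fell into separate ranges that mostly followed the labelled line. All 16 female D2-Cre libraries held Sfxn1 at 38.0 to 57.2 CPM and Ttc12 at 7.29 to 14.4 CPM. Of 34 female D1-Cre libraries 33 held Sfxn1 at 96.4 to 181 CPM, and all 34 held Ttc12 at 1.42 to 5.78 CPM. The exception for Sfxn1 was library 17719. The 26 female D1-Cre libraries outside the comparison, of which 20 received virus that does not depend on Cre, were at 96.4 to 167 CPM of Sfxn1, so the high level was also present in these. The 9 male D2-Cre libraries of batch 2 held Sfxn1 at 43.2 to 50.8 CPM and Ttc12 at 6.17 to 14.3 CPM. In batch 1, 4 of 6 libraries labelled male D2-Cre had Sfxn1 above every female D2-Cre library and Ttc12 no higher than the female D1-Cre libraries: 92.1 and 2.02 CPM in 19099, 94.2 and 2.80 in 18386, 95.0 and 5.19 in 18777, and 130 and 5.21 in 18718. Of 22 labelled male D1-Cre, 3 showed the reverse: 47.4 and 13.4 CPM in 19107, 53.6 and 10.95 in 18722, and 53.8 and 17.4 in 19112. Library 18749, at 63.7 and 9.28 CPM, lay between the female ranges for Sfxn1 and in the D2-Cre range for Ttc12, and library 18759, at 49.5 and 4.88 CPM, lay in the D2-Cre range for Sfxn1 and the D1-Cre range for Ttc12. No library was moved to another group.

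**Figure D5:**
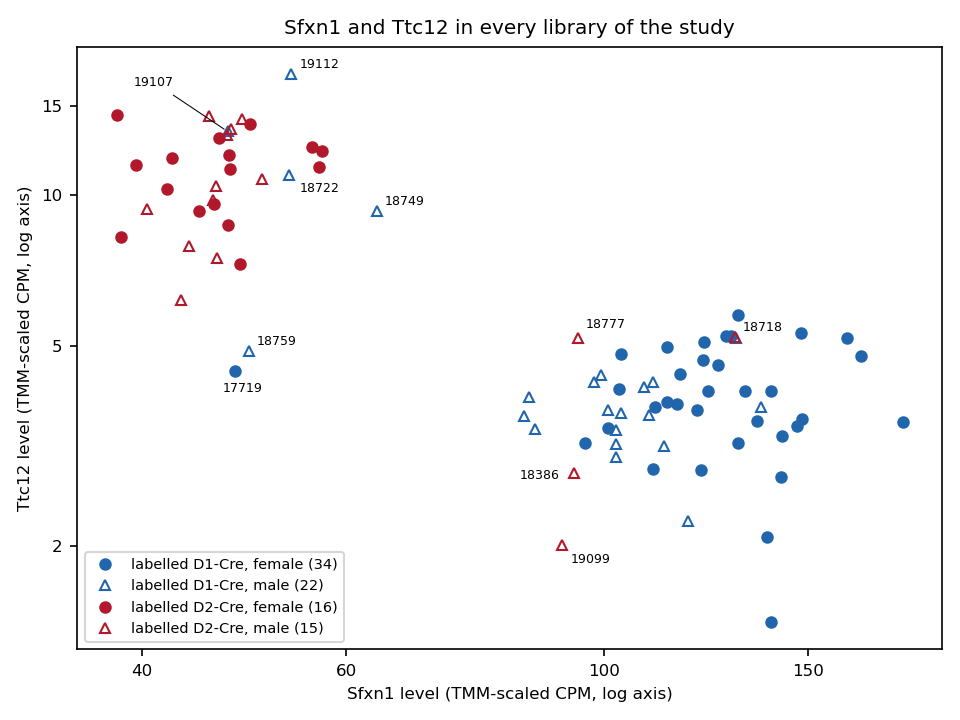
Ttc12 against Sfxn1, both in TMM-scaled CPM on log axes, in 87 libraries, coloured by labelled line (D1-Cre blue, D2-Cre red) with filled circles for females and open triangles for males. Females separate by line apart from 17719, and the male libraries named in the text are numbered.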

How the data were processed

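Ribosomal RNA-depleted total RNA of the nucleus accumbens was sequenced from a stranded TruSeq kit, per the labels' protocols. Per the submitters' processing notes, the tools were HISAT2, Trim Galore, SAMtools, Subread's featureCounts and DESeq2 1.27, and the build was mm10. Neither the annotation nor the strandedness of counting is stated. Deposited values are whole-number counts of reads per gene, not normalized, for 55487 genes. Of the columns 1 matched no label and was left out, and 1 labelled library had no column. Symbols came from a mouse annotation table (93 identifiers had none) and positions from GENCODE M21.

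Groups came from the titles. Counts of 87 libraries were fitted with edgeR 4.0.16 (R 4.3.3; TMM, filterByExpr by group, robust quasi-likelihood, 12 groups and sequencing batch), and the contrast of female controls was adjusted by Benjamini-Hochberg over 25420 genes at 0.05. Levels are CPM scaled by TMM, and 4 genes were tested by exact permutation on log2 CPM with a prior count of 2. The test was checked on simulated data. Alternatives used DESeq2 1.42.0, limma 3.58.1, sva 3.50.0 and left-out libraries. The members and 32 lists were chosen with earlier results of these data known. Named genes were those that passed, the next 5 by p in each direction, Drd1, Drd2, Adora2a, Fosb and list members of the smallest p. Others are examples of a list or are marked in the text as chosen afterwards.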

Additional observations from a re-analysis of the deposited data

Results flagged for a closer look

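In 38 pairs of a gene and a group (19 genes, 8 libraries in a group), 8 had a library set apart from the rest of its group. Dixon's test at the 95% level on log2 CPM was used, which sets apart about 1 in 20 by chance. Most of these genes were chosen by their p in these data, and some rested on 1 library. The 8 pairs therefore cannot be set against that rate. Among the 8 was Sfxn1 in D1-Cre library 17719 (48.1 CPM, the other 7 at 103 to 181). In the same library Gm35021 stood at 0.12 CPM, with the others at 0.511 to 1.48. Dnah6 stood at 1.44 CPM in D2-Cre library 17909, with the others at 6.51 to 8.90. Gm9887 stood at 890 CPM in D1-Cre library 16583, with the others at 1.98 to 4.18. Rnu2-10, a spliceosomal RNA gene, stood at 106 CPM in D1-Cre library 16597, with the others at 0.411 to 5.17, and mt-Atp6 at 25.4 CPM in D1-Cre library 16585, with the others at 1.95 to 5.39. In the D2-Cre group Adora2a stood at 50.8 CPM in library 17906, with the others at 108 to 187, and Fosb at 11.9 CPM in library 17910, with the others at 5.47 to 7.87.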

How the results depend on the processing

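The count of 5 genes in female controls was 5 with DESeq2 size factors, DESeq2's Wald test and 3 surrogate variables, and 4 with batch 1 libraries alone. It was 3 without a low-count filter, with limma-voom and with the 16 libraries alone, and 1 without libraries 16583 and 17910, as without 16583, 17910, 17719 and 17909, a setting added after seeing the data. Leaving out 1 library at a time gave 2 to 4 genes, with Pole2 among them without 17455. List members past the threshold numbered 3, and 1 in both settings without several libraries (1 to 3 leaving out 1), and called genes with another called gene within 1 Mb numbered 0 (0 to 2). In females with the Fosb guide the count of 1 was 1 without library 17376, left out after seeing the data, 2 with DESeq2 size factors and limma-voom, and 3 with DESeq2's Wald test and with surrogate variables. In males with the Fosb guide the count of 1 was 0 without a filter, with limma-voom and with surrogate variables, and 2 with batch 1 libraries alone. In male controls 0 became 8 without 18386 and 19099, also added after seeing the data. The cause was not tested.

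Gm9887 reversed to −0.018 with DESeq2's Wald test, −0.080 without 16583 and 17910 and −0.038 without the 4 libraries. Genes that had not passed changed sign near 0: Drd2 to 0.042 and Fosb to 0.046 without 16583 and 17910 (differences in mean log2 CPM 0.049 and 0.021), and Fosb to 0.016 with limma-voom and 0.030 without the 4 libraries. Leaving out 1 library gave Drd2 −0.22 to 0.00090 and Fosb −0.15 to 0.036 (highest without 17910), Drd1 −0.011 to 0.15 and Adora2a −0.017 to 0.19 (lowest without 17906). No paired analysis was possible because the 88 replicate numbers are each used by 1 library. With 5686295 protein-coding counts, library 17457 gives low genes the least precision, and without it Dnah6, Gm9887 and Sfxn1 passed.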
